A study of Bos taurus and Ovis aries and Capra hircus with 27 samples.

Results

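ACTB (ENSBTAG00000026199), GAPDH (ENSBTAG00000014731) and YWHAZ (ENSBTAG00000000236) are 3 genes often used as expression references. They are taken by identifier, by a rule that uses no measured value, and make up 3 of the 24616 genes in the cattle table and of the 71943 genes in the 3 species tables of the series. Heart, liver and kidney of indigenous Bos taurus of about 4 years were each represented by 3 strand-specific messenger RNA libraries, 9 in all, and the study describes the cattle as 3 unrelated adult females and as the low-altitude relatives of yak. No treatment is named. As the study describes all tissues as sampled from the same individuals, the 9 libraries would come from 3 shared animals, but the labels do not say which library belongs to which animal. Goat and sheep libraries were also part of the series, but no match of their identifiers with the 3 genes was made, and they were not analysed here. The comparison asked how level each gene was over the 3 tissues. The table listed identifiers alone, and the pairing of the 3 identifiers with their symbols was taken as given, since the reference table of cattle genes matched 0 of the 24616 identifiers. For the same reason tissue markers were not analysed here, and neither were other common reference genes.

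ACTB encodes cytoplasmic beta-actin, the subunit of the actin filaments that shape and move nearly all animal cells. GAPDH encodes glyceraldehyde-3-phosphate dehydrogenase, the enzyme of glycolysis that oxidises glyceraldehyde 3-phosphate with NAD as the acceptor. YWHAZ encodes the zeta member of a family of adaptor proteins that bind phosphorylated serine and threonine in their partners. Such genes serve as the denominator in quantitative PCR, where the level of a target is divided by the level of the reference, so that any difference of the reference between samples passes into the result. ACTB and GAPDH are known to have close relatives in mammalian genomes, both working genes and processed copies, and how reads shared with them were assigned is not given in the sources used here. Their values are uncertain to that extent.

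Values were FPKM, that is, fragments scaled to transcript length and to the mapped fragments of the library, so levels can be compared between genes of unequal length. No counts were in the table, and the depth of each library was therefore unknown. Summed FPKM ranged from 472908 to 904285 per library, and the 10 highest genes took from 29.1% to 39.9% of the sum in heart, from 19.3% to 22.0% in liver and from 14.1% to 19.2% in kidney. FPKM is a relative value, so the levels of other genes can depend on the fragments taken by the highest genes. How far they did so here was not tested. Libraries of the same tissue were alike, with a Pearson's r across 14041 genes of at least 0.950 in the 9 pairs, and the highest r between tissues was 0.649. The tests treat the 9 libraries as separate samples, and sharing of animals between tissues was not part of them. In whole tissue, a change in the cells present and a change of RNA per cell cannot be told apart.

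None of the 3 genes was level over the tissues. ACTB was highest in kidney, and no difference between heart and liver was detected. GAPDH was highest in heart, lower in liver and lowest in kidney. YWHAZ was highest in kidney, lower in heart and lowest in liver. The mean FPKM of the highest tissue exceeded that of the lowest by 5.80-fold for ACTB, 6.79-fold for GAPDH and 6.47-fold for YWHAZ. All 3 genes passed limma's moderated F test for any difference between tissues, with an adjusted p of 3.51e-06 for ACTB, 4.88e-06 for GAPDH and 5.44e-07 for YWHAZ. The same test called 89.8% of the 14041 genes tested, so a call alone does not set the 3 genes apart from other genes.

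**Figure D1:**
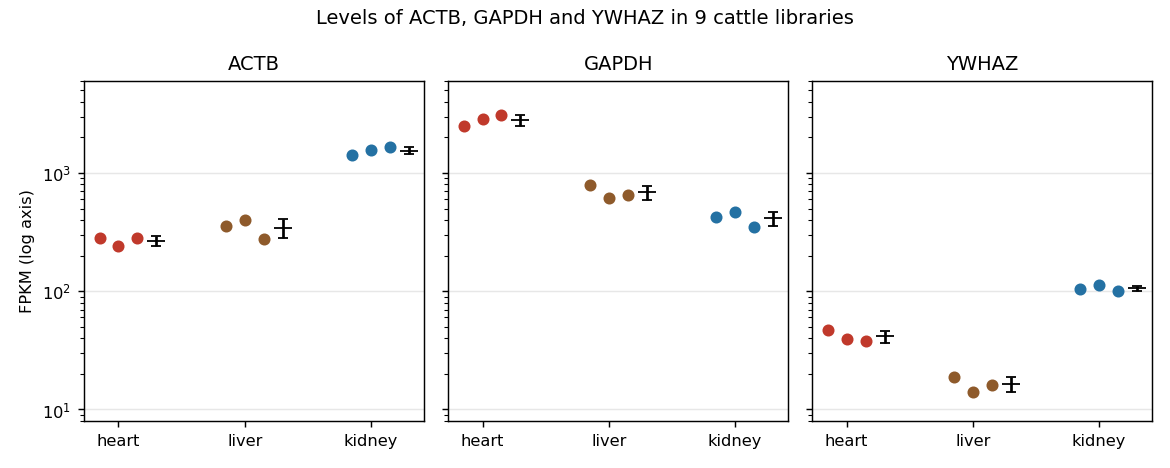
FPKM (log axis) of ACTB, GAPDH and YWHAZ in each of the 9 cattle libraries, 1 point per library, with the mean and SD of 3 libraries as a black bar beside the points. ACTB and YWHAZ are highest in kidney and GAPDH is highest in heart, and only the heart and liver libraries of ACTB overlap.

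ACTB had 282, 240 and 280 FPKM in heart libraries 1, 2 and 3. It had 356, 400 and 274 FPKM in the liver libraries and 1433, 1553 and 1663 FPKM in the kidney libraries. Every kidney library lay far above the others, while liver 3 fell within the range of heart. The means were 267 ± 23.7 in heart, 343 ± 64.0 in liver and 1550 ± 115 FPKM in kidney (SD, n = 3). On the log2(FPKM + 1) scale, heart minus kidney was −2.53 ± 0.22 (SE, limma adjusted p = 3.24e-06) and liver minus kidney was −2.19 ± 0.22 (limma adjusted p = 8.96e-06). Heart minus liver was −0.35 with a 95% interval from −0.83 to 0.13 (limma adjusted p = 0.194). This difference was not detected, but the interval includes differences of up to 0.83 in favour of liver, and it was called when the libraries were scaled to the same summed FPKM (−0.96, limma adjusted p = 0.00581). In order of ACTB level, heart and liver were thus next to each other, and the deposited values do not settle whether they differ.

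GAPDH was the most abundant of the 3 genes in heart and liver. It had 2489, 2867 and 3078 FPKM in heart libraries 1, 2 and 3, against 792, 611 and 652 FPKM in liver and 425, 466 and 352 FPKM in kidney. The 3 tissues did not overlap, and the lowest liver library stood above the highest kidney library. The means were 2812 ± 298 in heart, 685 ± 94.9 in liver and 414 ± 57.5 FPKM in kidney (SD, n = 3). Heart minus liver was 2.04 ± 0.24 on the log2 scale (SE, limma adjusted p = 3.76e-05) and heart minus kidney was 2.76 ± 0.24 (limma adjusted p = 3.25e-06). Liver minus kidney was smaller, at 0.72 ± 0.24 (limma adjusted p = 0.0176). This last call was lost without kidney 1 (0.75, limma adjusted p = 0.0562) and without kidney 3 (0.61, limma adjusted p = 0.0792), and with every gene of the table in the fit (0.72, limma adjusted p = 0.0882), although liver stayed above kidney.

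YWHAZ was the least abundant of the 3 genes in every library. It had 47.1, 39.5 and 37.8 FPKM in heart libraries 1, 2 and 3, 18.9, 14.1 and 16.0 FPKM in liver, and 104, 112 and 101 FPKM in kidney. The 3 tissues did not overlap. The means were 41.5 ± 4.97 in heart, 16.4 ± 2.39 in liver and 106 ± 5.67 FPKM in kidney (SD, n = 3). Heart minus liver was 1.29 ± 0.16 on the log2 scale (SE, limma adjusted p = 6.02e-05), heart minus kidney was −1.33 ± 0.16 (limma adjusted p = 3.59e-05) and liver minus kidney was −2.63 ± 0.16 (limma adjusted p = 2.91e-07). With deposited values heart lay about midway between the other tissues on this scale. It lay nearer to kidney with median ratio scaling (1.25 above liver and 0.50 below kidney) and nearer to liver with an equal sum (0.71 above liver and 1.88 below kidney).

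Counted by comparison, 2 of the 3 genes were called between heart and liver, where 57.2% of all genes tested were called. Both were higher in heart (30.3% of all genes), and none of the 3 was called lower there (26.9% of all genes). All 3 were called between heart and kidney (73.3% of all genes). GAPDH was higher in heart (19.5% of all genes), whereas ACTB and YWHAZ were lower (53.8% of all genes). All 3 were also called between liver and kidney (73.2% of all genes), GAPDH as higher in liver (14.8% of all genes) and ACTB and YWHAZ as lower (58.4% of all genes). The libraries of heart and liver did not overlap in 2 of the 3 genes (62.2% of all genes), and neither heart and kidney (81% of all genes) nor liver and kidney (75.1% of all genes) overlapped in any of the 3. GAPDH and YWHAZ had no overlap between any pair of tissues, which held for 36.4% of all genes tested. The size of the differences can be read against all genes too. Between heart and kidney, 9.28% of the genes tested had a larger absolute log2 difference than GAPDH and 11.3% had a larger one than ACTB. Between liver and kidney, 11.6% had a larger one than YWHAZ. The smallest differences were those of ACTB between heart and liver, which 69.5% of the genes exceeded, and of GAPDH between liver and kidney, which 62.0% exceeded.

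With deposited values, the order of the tissues in GAPDH was the least frequent of the 6 possible orders. The orders were not counted with other scalings. Heart above liver above kidney was found in 934 of the 14041 genes tested (6.65%), and in 253 of these the libraries of the 3 tissues did not overlap. The tissue means of ACTB were in the most frequent order, kidney above liver above heart, found in 4400 genes (31.3%), although its heart and liver libraries overlapped, and the order of YWHAZ, kidney above heart above liver, was found in 3840 genes (27.3%). The median log2 difference over all genes tested was 0.01 for heart minus liver, −0.62 for heart minus kidney and −0.70 for liver minus kidney, so that the typical gene was also higher in kidney. Relative to these medians, ACTB differed by −1.92 between heart and kidney and by −1.48 between liver and kidney. YWHAZ differed by −0.72 and −1.93, and GAPDH by 3.38 and 1.43. The direction of each gene was therefore kept relative to the typical gene.

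Ranks within a library do not depend on how the library was scaled. GAPDH stood between position 30 and 37 among the 24616 genes in the heart libraries, between 98 and 107 in liver and between 155 and 201 in kidney. ACTB stood between 293 and 335 in heart, between 152 and 289 in liver and between 52 and 64 in kidney. YWHAZ stood between 1288 and 1620 in heart, between 2889 and 3464 in liver and between 548 and 636 in kidney. For each gene, the ranks of the 3 tissues did not overlap. The share of all genes for which this held was not computed, so it does not set the 3 genes apart. By FPKM, no pair of tissues overlapped in 36.4% of all genes tested. For ACTB in heart and liver the nearest ranks were close, at 293 in heart 1 and 289 in liver 3. Its FPKM overlapped between these tissues, and the difference in rank was not tested.

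The scaling moved the size of the differences, but in 8 of the 9 comparisons neither the direction nor the call changed between deposited FPKM and the 4 other scalings tried. The exception was ACTB between heart and liver, for which the direction was kept but scaling to an equal sum, with or without the highest genes, gave a call. Division of each library by its median ratio to the other libraries, which centres the typical gene, brought ACTB between heart and kidney to −1.69 and YWHAZ to −0.50 (limma adjusted p = 0.0152). It raised GAPDH between heart and kidney to 3.61 and between liver and kidney to 1.63. The factors of this scaling lay between 0.728 and 0.907 in the heart and liver libraries and between 1.42 and 1.55 in the kidney libraries.

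**Figure D2:**
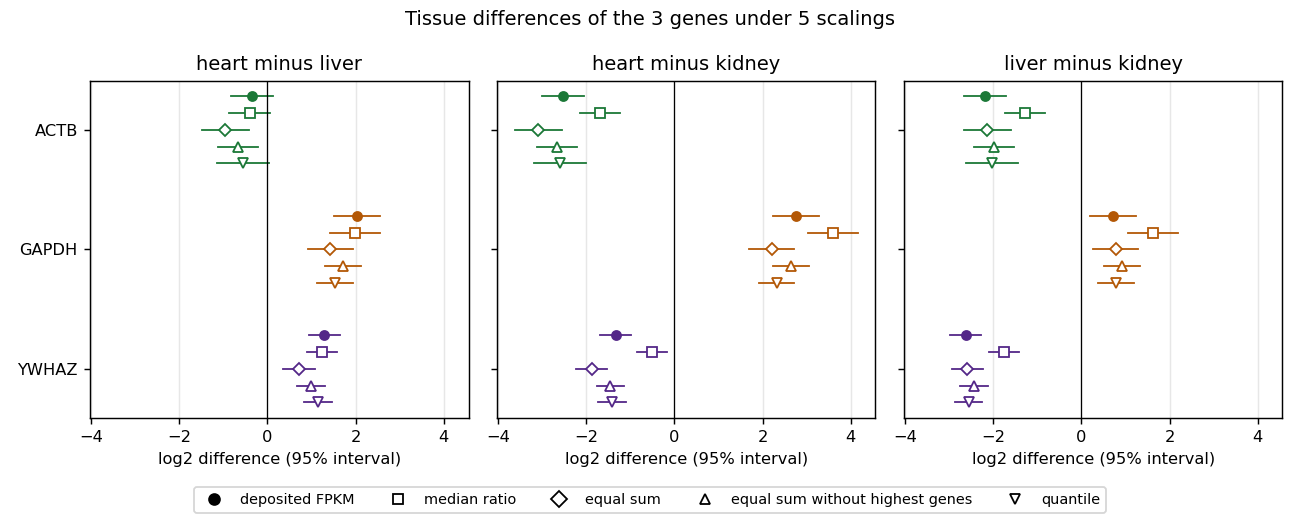
Log2 differences of the 3 genes for each pair of tissues with limma's 95% intervals, under the deposited FPKM (filled circles) and 4 other scalings (open symbols). Each gene keeps its side of 0 under all 5 scalings, and only the intervals of ACTB for heart minus liver reach 0, with deposited, median ratio and quantile values.

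Ratios of a pair of reference genes within a library are free of the scaling as well. The log2 ratio of GAPDH over ACTB was 3.14, 3.58 and 3.46 in heart libraries 1, 2 and 3. The liver libraries had 1.15, 0.61 and 1.25, and the kidney libraries had −1.75, −1.74 and −2.24. The pair therefore changed places, GAPDH being the higher gene in heart and liver and ACTB in kidney. The mean log2 ratio was 3.39 ± 0.23 in heart, 1.01 ± 0.35 in liver and −1.91 ± 0.29 in kidney (SD, n = 3), a span of 5.30 between heart and kidney.

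GAPDH over YWHAZ had a mean log2 ratio of 6.08 ± 0.32 in heart, 5.39 ± 0.04 in liver and 1.96 ± 0.14 in kidney (SD, n = 3). Heart and liver were close to each other in this ratio, and kidney stood apart. ACTB over YWHAZ had 2.69 ± 0.17 in heart, 4.38 ± 0.39 in liver and 3.87 ± 0.15 in kidney. This was the most level of the 3 ratios, with a span of 1.70 between liver and heart, and liver exceeded kidney by 0.51, with the nearest libraries at 4.10 and 4.04. Without liver 2 this difference was 0.29 (exact permutation p = 0.2). Without kidney 1, kidney 2 or kidney 3 it was 0.47, 0.47 and 0.60 (exact permutation p = 0.2 for each). Without liver 1 or liver 3 it was 0.59 and 0.66 (exact permutation p = 0.1 for each). With log2(FPKM + 1) it was 0.44 with overlapping libraries (exact permutation p = 0.2). The exact permutation test over the 1680 assignments of 9 libraries to 3 tissues gave p = 0.00357 for each of the 3 ratios, which is the smallest value the design allows, and the same value after Benjamini-Hochberg adjustment over the 3 ratios. For a single pair of tissues, each of the 9 comparisons of ratios had an exact permutation p of 0.1 (2-sided), the smallest that 3 libraries against 3 can give.

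**Figure D3:**
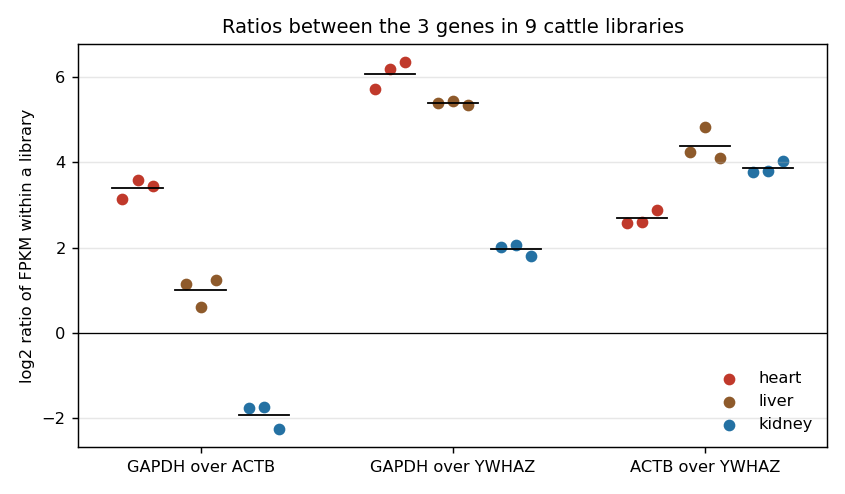
Log2 ratio of FPKM between each pair of the 3 genes within a library, 1 point per library, with the mean of each tissue as a black line. GAPDH over ACTB runs from a mean of 3.39 in heart to −1.91 in kidney, and ACTB over YWHAZ spans the shortest distance.

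Within a tissue, the 3 genes varied less than the typical gene with deposited values. The pooled SD of log2(FPKM + 1) within tissues was 0.19 for ACTB, 0.19 for GAPDH and 0.15 for YWHAZ, beside a median of 0.25 over all genes tested. A lower value was found in 28.0%, 27.1% and 16.1% of the genes. For ACTB this depended on the scaling, since its SD within tissues was 0.28 with an equal sum (52.6% of the genes lower) and 0.34 with quantile normalization (79.9% lower). The highest of the 3 libraries of a tissue exceeded the lowest by 1.11-fold (YWHAZ in kidney) to 1.46-fold (ACTB in liver). ACTB in liver also had the largest SD within a tissue, 0.28 on the log2 scale. Kidney 1 and 2 and heart 2 and 3 were the closest pairs of libraries over 1413 genes of middle to high level, with a mean log2(FPKM + 1) from 5 to below 8 (robust SD of the log2 difference 0.10 and 0.12, against 0.25 to 0.56 in the other 7 pairs). In these pairs, ACTB differed by 0.12 and 0.22, GAPDH by 0.13 and 0.10, and YWHAZ by 0.10 and 0.06 in absolute log2 value.

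Over all 9 libraries, the SD was 1.20 for ACTB, 1.25 for GAPDH and 1.15 for YWHAZ, beside a median of 0.69 over all genes tested. A lower SD was found in 79.1%, 80.6% and 77.3% of the 14041 genes, and in 69.9%, 71.0% and 67.7% of the 1580 genes with a mean log2(FPKM + 1) of at least 5. Between the lowest and the highest library, FPKM differed by 6.94-fold for ACTB, 8.74-fold for GAPDH and 7.92-fold for YWHAZ. The coefficient of variation was 87.0%, 88.1% and 73.6%. The tissue means of ACTB, GAPDH and YWHAZ spanned 2.53, 2.76 and 2.63 on the log2 scale. Over the 1580 abundant genes this span had a median of 1.70 and an upper quartile of 2.83. Of these genes, 334 (21.1%) had tissue means within 1 and 98 (6.20%) within 0.5.

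The rank of the 3 genes by this SD depended on the scaling. With deposited values the 3 SDs were close to each other. With median ratio scaling they were 0.774 for ACTB, 0.790 for YWHAZ and 1.57 for GAPDH, and a lower SD was found in 63.0%, 63.9% and 88.5% of the genes tested. With an equal sum they were 1.39 for ACTB, 1.16 for YWHAZ and 0.985 for GAPDH, so that the least level gene under the one scaling was the most level of the 3 under the other. No scaling of the 5 brought any of the 3 genes below the median SD of all genes tested. Among the abundant genes, median ratio scaling left 47.3% with a lower SD than ACTB, 48.4% than YWHAZ and 78.6% than GAPDH. ACTB and YWHAZ thus lay slightly below the median of abundant genes with that scaling. With the other scalings all 3 genes lay above it.

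**Figure D4:**
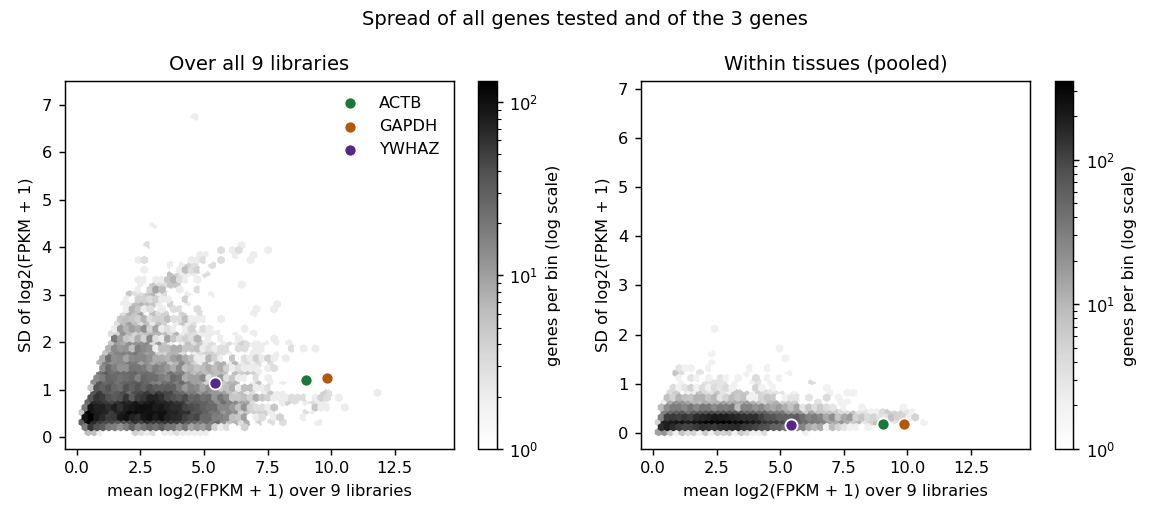
SD of log2(FPKM + 1) against the mean, for all 14041 genes tested (grey bins, darker for more genes) and the 3 genes (colored points), over all 9 libraries (left) and pooled within tissues (right). Over all libraries the 3 genes lie between 1.15 and 1.25, above the bulk of the genes, and within tissues they lie between 0.15 and 0.19.

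The M value of geNorm, the mean SD of a gene's log2 ratios with the other reference genes, was 2.12 for GAPDH, 1.55 for ACTB and 1.35 for YWHAZ over the 9 libraries. A lower value means that the ratios of a gene to the others were steadier, not that its own level was. The ratio of ACTB and YWHAZ had the lowest SD, 0.785, and it enters the M of both genes. Computed within the libraries of a tissue, the values lay between 0.199 and 0.274 in heart, between 0.195 and 0.366 in liver and between 0.143 and 0.217 in kidney. ACTB was highest in kidney, where GAPDH was lowest. With deposited FPKM, their geometric mean had a smaller spread than either gene. Its SD was 0.41 on the log2 scale, with tissue means within 0.85. Unlike ratios, geometric means depend on how the libraries were scaled, and their spread was not computed with other scalings. The geometric mean of all 3 genes had an SD of 0.63, with tissue means of 8.29 in heart, 7.28 in liver and 8.67 in kidney. The geometric mean of ACTB and YWHAZ had an SD of 1.12, close to that of each gene.

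To see how the choice of reference gene carries into other genes, each library was divided by the level of 1 of the 3 genes in it and the fit was repeated over all genes. This step was added after the data were examined. Division by a gene changes the FPKM of all genes of a library by the same factor. The added 1 lessens the shift on the log2 scale for genes with low values. The move still follows from the tissue difference of that gene, though it is not equal to it for every gene. The shares of calls restate that difference rather than add a finding on other genes. With deposited FPKM, heart was the higher tissue for 26.6% of the heart and kidney calls, and the median ratio scaling gave 51.7%. Division by ACTB gave 90.0%, division by GAPDH gave 4.10% and division by YWHAZ gave 72.2%. Between liver and kidney, the calls higher in liver were 20.2% with deposited FPKM, 49.6% with median ratio scaling, 86.5% with ACTB, 12.3% with GAPDH and 90.7% with YWHAZ. Between heart and liver, the calls higher in heart were 53.0%, 49.8%, 66.0%, 8.47% and 15.4% in the same order. For comparison, scaling to an equal sum gave 16.9%, 21.4% and 30.3%, and quantile normalization gave 46.2%, 40.5% and 51.2%, for heart against kidney, liver against kidney and heart against liver. The median log2 difference of all genes tested between heart and kidney moved from −0.62 with deposited FPKM to 1.26 with ACTB, −2.64 with GAPDH and 0.35 with YWHAZ.

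The geometric mean of the 3 genes gave 36.2% of calls higher in heart than in kidney, 69.1% higher in liver than in kidney and 20.7% higher in heart than in liver. It also moved the median difference between heart and liver to −0.69, where deposited FPKM and median ratio scaling gave 0.01 and −0.02. No choice among the 3 genes and their geometric mean gave a split within 10 percentage points of that with deposited FPKM in all 3 comparisons. The same held for every other scaling of the libraries. For heart against kidney, median ratio scaling gave 51.7% and quantile normalization 46.2%, beside 26.6% with deposited FPKM. For heart against liver, an equal sum gave 30.3%, and 40.3% without the highest genes, beside 53.0% with deposited FPKM.

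**Figure D5:**
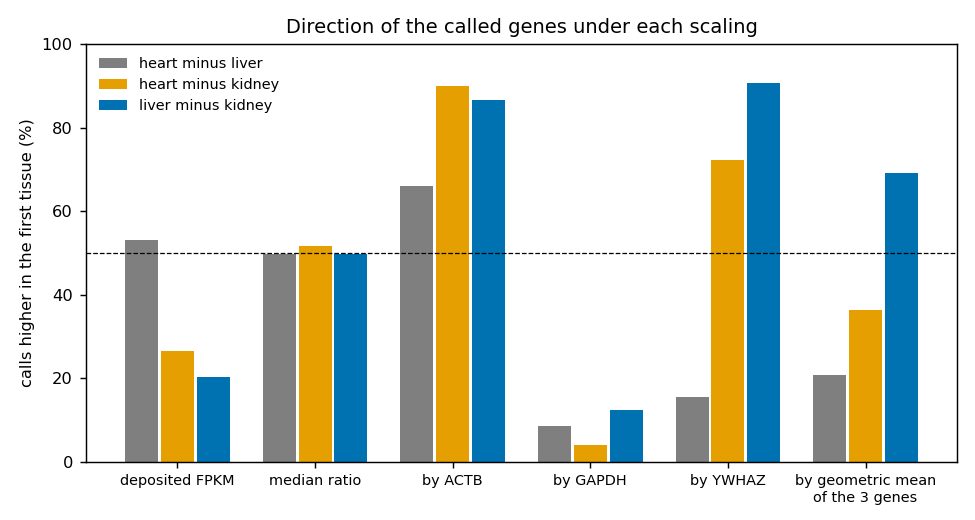
Share of the genes called (limma, adjusted p at or below 0.05) that were higher in the first tissue of each comparison, in percent, for deposited FPKM, median ratio scaling and division of each library by ACTB, GAPDH, YWHAZ or their geometric mean. The dashed line marks an even split. Between heart and kidney the share runs from 4.10% with GAPDH to 90.0% with ACTB.

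Over the 9 libraries, Pearson's r on log2(FPKM + 1) was −0.78 between ACTB and GAPDH, 0.79 between ACTB and YWHAZ and −0.25 between GAPDH and YWHAZ. These coefficients describe 3 tissues more than 9 independent points, since the libraries of a tissue lay together. An r above 0.9 with ACTB was found in 3598 of the other 14040 genes (25.6%), with YWHAZ in 1526 (10.9%) and with GAPDH in 778 (5.54%). An r below −0.9 was found with ACTB in 174 genes (1.24%), with YWHAZ in 461 (3.28%) and with GAPDH in 934 (6.65%). Of the 3 genes, ACTB thus had the most genes with an r above 0.9. These counts used deposited values, with which the typical gene was also higher in kidney, and were not repeated with other scalings. The genes most like each of the 3 are given by identifier, as the table holds no names for them.

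The gene most like ACTB was ENSBTAG00000024901 (r = 0.997 over 9 libraries), which had 26.2 ± 7.38 FPKM in kidney and at most a mean of 0.568 in the other tissues. ENSBTAG00000017850 (r = 0.997) was closer to ACTB in size of change, with 10.1 ± 1.37 in heart, 13.4 ± 1.91 in liver and 43.8 ± 2.29 FPKM in kidney (SD, n = 3). ENSBTAG00000008136 (r = 0.996) had a mean of 15.7 FPKM in liver and 44.2 in kidney.

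The gene most like GAPDH was ENSBTAG00000006084 (r = 0.995), with 165 ± 1.66 in heart, 23.1 ± 5.62 in liver and 13.5 ± 3.29 FPKM in kidney (SD, n = 3). ENSBTAG00000016048 (r = 0.994) had a mean of 84.4 FPKM in heart and 0.738 in kidney, and ENSBTAG00000014581 (r = 0.994) had 160 in heart and 3.96 in liver. Their tissue means differed by larger folds than those of GAPDH. The gene most like YWHAZ was ENSBTAG00000036087 (r = 0.997), at 1.20 in heart, 0.270 in liver and 2.79 FPKM in kidney. ENSBTAG00000010799 (r = 0.994) had the same order at higher levels, with 441 ± 66.8 in heart, 180 ± 30.2 in liver and 1043 ± 128 FPKM in kidney. ENSBTAG00000033032 (r = 0.994) had 14.9, 9.36 and 22.5 FPKM on average.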

How the data were processed

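Messenger RNA of cattle heart, liver and kidney was sequenced in 9 strand-specific libraries, grouped by sample title. The study's methods describe filtering of reads, mapping with TopHat to UMD3.1 and quantification with Cufflinks 2.2.1. The authors deposited log2(FPKM + 1) values per gene and library, with no pooling of replicates, and the log was undone to obtain FPKM. The annotation release is not given in the sources used here, and sequences and positions of the genes were not analysed here.

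A gene was tested where 3 or more of the 9 libraries exceeded 0.5 FPKM (14041 genes). limma 3.58.1, run in R 4.3.3, fitted a mean per tissue to log2(FPKM + 1) with eBayes and a mean-variance trend, with Benjamini-Hochberg adjustment over all genes tested at 0.05. The added 1 lessens differences of genes with low values, YWHAZ in liver among them. The fit was tested on simulated data. Ratios used log2 of FPKM and exact permutation tests (Python 3.11.15). Other scalings, pseudocounts, filters, a variance model without trend, a replicate block, averaged close pairs and leaving out each library were tried. Genes most like each member were the 3 with the highest Pearson's r, and the 3 abundant genes with the lowest SD were also named. The rule for the members uses no measured value, but the members and lists were chosen with earlier results of these data known. A planned match to goat proteins was not analysed here.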

Additional observations from a re-analysis of the deposited data

How the results depend on the processing

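Depth was unknown, and the precision rests on 3 libraries per tissue. For the 9 tissue differences and 3 F tests of the 3 genes, the other scalings, pseudocount, filters, variance model, averaging and replicate block gave 120 values, of which 116 kept both direction and call. ACTB between heart and liver was called with an equal sum (−0.96) and with an equal sum without the highest genes (−0.67). GAPDH between liver and kidney was not called with all genes of the table (0.72, limma adjusted p = 0.0882) or with the close pairs averaged (0.78, limma adjusted p = 0.0812). Leaving out each library gave 106 of 108 unchanged calls. The exceptions were GAPDH between liver and kidney without kidney 1 and without kidney 3, and this difference ranged from 0.61 to 0.81. The SD moved by more than the spread within tissues with median ratio scaling (ACTB 0.774, GAPDH 1.57, YWHAZ 0.790), with an equal sum (ACTB 1.39, GAPDH 0.985) and, for GAPDH, with quantile normalization (1.03). The number of genes called in each comparison stayed within 1.5 times under every alternative for which it was computed. Division by 1 of the 3 genes, added after the data were examined, turned ACTB between liver and kidney to 0.51 (by YWHAZ), YWHAZ between heart and liver to −0.65 (by GAPDH) and YWHAZ between heart and kidney to 1.16 (by ACTB). YWHAZ between liver and kidney was then not called (−0.49, by ACTB), and ACTB between heart and liver was called by GAPDH (−2.38), by YWHAZ (−1.69) and by the geometric mean (−1.36). These values restate the ratios between the genes.

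With the replicate number as a block, no call of the 3 genes changed, and GAPDH between liver and kidney (0.72) had a limma adjusted p of 0.0390. The block lowered the number of genes called between heart and liver from 8036 to 7735. Deviations from the tissue mean correlated by −0.16 to 0.16 between the 9 pairs of libraries with the same number and by −0.20 to 0.20 between the 18 pairs with different numbers, and 3 of the 9 libraries correlated best with a library of their own number. Permuting tissues within numbers gave an exact p of 0.0278 for each ratio, the smallest that this permutation allows.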

Other observations

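Among the 1580 genes with a mean log2(FPKM + 1) of at least 5, the 3 with the lowest SD over the 9 cattle libraries were ENSBTAG00000018127, ENSBTAG00000007123 and ENSBTAG00000008634. They are given by identifier, since the table holds no names for them. ENSBTAG00000018127 had 32.6 ± 2.37 in heart, 31.2 ± 3.14 in liver and 33.6 ± 2.68 FPKM in kidney (SD, n = 3), with an SD of 0.11 on the log2 scale. ENSBTAG00000007123 had 33.8 ± 2.33, 31.0 ± 2.45 and 29.6 ± 1.22 FPKM in the same tissues (SD 0.11), and ENSBTAG00000008634 had 45.3 ± 2.06, 55.0 ± 3.66 and 49.7 ± 3.73 FPKM (SD 0.14). They were picked by the values shown, which are a description.

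Their place also moved with the scaling. With median ratio scaling the SDs of ENSBTAG00000018127, ENSBTAG00000007123 and ENSBTAG00000008634 were 0.41, 0.49 and 0.46, at places 256, 370 and 318 among the abundant genes, beside 0.77 for ACTB, 0.79 for YWHAZ and 1.57 for GAPDH. With an equal sum after the 32 highest genes were left out they were 0.14, 0.17 and 0.29, at places 5, 15 and 114. With an equal sum they were 0.30, 0.27 and 0.43, at places 82, 58 and 228. Quantile normalization gave 0.14, 0.25 and 0.22, and ENSBTAG00000007123 then had no place among the abundant genes. In each of these scalings the 3 genes had a lower SD than ACTB, GAPDH and YWHAZ. Since they were picked for a low SD in the same libraries, this is no test of their steadiness.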
